A study of Mus musculus with 18 samples.

Results

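Slc2a1, Slc2a3, Hk2, Pgk1, Ldha, Pfkp, Pdk1, Bnip3, Egln3 and Ankrd37 are genes of glucose uptake, glycolysis and the response to low oxygen. They were taken by name, 10 of the 56551 genes in the deposited table, and followed over all 18 libraries. The values are RNA levels in mouse embryonic stem cells. The 6 groups, by their labels and with 3 libraries each, were cells lacking Ring1a (Ring1a-KO), cells lacking Ring1b (Ring1b-KO), cells lacking both (Ring1a/b-dKO), cells lacking Pcgf1, Pcgf3, Pcgf5 and Pcgf6 (Pcgf-4KO), cells lacking all 6 Pcgf genes, Pcgf1 to Pcgf6 (Pcgf-6KO), and wild-type cells (WT). The labels give no strain, medium, clone, oxygen level or day, and name no other allele or agent. All 10 genes were found, and each was at 4.07 TPM or more in every library, so the filter on low values removed none of them. TPM is the share of transcripts, corrected for transcript length and scaled to a total of 1000000 per library.

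The Ring1 and Pcgf proteins are subunits of Polycomb repressive complex 1, which ubiquitylates histone H2A and keeps developmental genes silent. Glycolysis turns glucose into pyruvate in the cytosol, and lactate dehydrogenase turns pyruvate into lactate. When oxygen is low, the prolyl hydroxylases of the Egln family stop marking hypoxia-inducible factors (HIF) for destruction, and HIF then binds a short core motif and raises the transcription of glucose transporters, glycolytic enzymes and other genes. All 10 genes are known as HIF targets. Pluripotent stem cells are known for a high rate of glycolysis even where oxygen is plentiful.

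RefSeq promoter windows of build GRCm38.p6, running from 250 bases before the start of transcription to 50 bases after it, were available for 9 of the 10 genes, all but Slc2a3. Those of Ldha, Pgk1, Pdk1 and Pfkp, 4 of the 6 genes that fell at least 2-fold in Pcgf-6KO, are shown. That of Slc2a1, which rose in Pcgf-6KO, is set beside them. Those of Egln3 and Ankrd37, which also fell that far, are not printed. Capitals mark the 5 bases of the HIF core motif, ACGTG or GCGTG, read on either strand, so that CACGT and CACGC mark the motif on the other strand and CACGTG counts on both. Ldha (chr7:46845554-46845853, plus strand), Pgk1 (chrX:106186850-106187149, plus), Pdk1 (chr2:71872974-71873273, plus), Pfkp (chr13:6648722-6649021, minus) and Slc2a1 (chr4:119108495-119108794, plus) read, 5′ to 3′:
Ldha: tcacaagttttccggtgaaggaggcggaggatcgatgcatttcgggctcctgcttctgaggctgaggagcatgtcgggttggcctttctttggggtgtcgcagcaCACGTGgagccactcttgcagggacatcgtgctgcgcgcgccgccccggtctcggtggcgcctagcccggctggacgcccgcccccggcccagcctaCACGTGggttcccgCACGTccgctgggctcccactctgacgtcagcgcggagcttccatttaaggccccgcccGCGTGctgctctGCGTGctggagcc
Pgk1: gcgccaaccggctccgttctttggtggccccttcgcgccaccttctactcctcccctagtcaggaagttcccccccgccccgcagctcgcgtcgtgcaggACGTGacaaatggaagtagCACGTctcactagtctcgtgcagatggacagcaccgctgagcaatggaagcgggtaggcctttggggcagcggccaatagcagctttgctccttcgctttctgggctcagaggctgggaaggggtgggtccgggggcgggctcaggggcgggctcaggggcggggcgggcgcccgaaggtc
Pdk1: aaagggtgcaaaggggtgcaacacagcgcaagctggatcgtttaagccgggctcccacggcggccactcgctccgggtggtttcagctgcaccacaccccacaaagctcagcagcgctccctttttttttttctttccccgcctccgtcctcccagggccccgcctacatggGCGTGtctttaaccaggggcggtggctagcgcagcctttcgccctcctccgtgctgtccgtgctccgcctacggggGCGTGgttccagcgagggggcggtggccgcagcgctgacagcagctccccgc
Pfkp: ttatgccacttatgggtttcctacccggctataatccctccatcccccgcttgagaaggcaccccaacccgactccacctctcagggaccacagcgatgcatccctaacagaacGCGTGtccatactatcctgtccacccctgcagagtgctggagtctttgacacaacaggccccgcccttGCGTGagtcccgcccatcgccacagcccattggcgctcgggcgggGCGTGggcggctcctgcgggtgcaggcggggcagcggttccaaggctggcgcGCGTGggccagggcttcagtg
Slc2a1: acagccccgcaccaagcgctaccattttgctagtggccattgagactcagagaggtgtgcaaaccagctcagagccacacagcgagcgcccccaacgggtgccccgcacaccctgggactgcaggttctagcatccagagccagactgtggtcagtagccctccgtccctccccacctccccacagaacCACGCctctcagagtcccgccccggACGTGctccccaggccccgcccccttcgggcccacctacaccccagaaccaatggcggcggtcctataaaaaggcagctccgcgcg
Pdk1 and Ldha have 2 such entries each, of which the most upstream is shown. The Ldha window lies inside the GENCODE span of the gene, downstream of its first annotated start.

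Either motif was present in 9 of the 9 windows, against 43.8% of 32851 RefSeq promoters of the same length. ACGTG was present in 7 of 9 windows, against 19.6% of all promoters, and GCGTG in 6 of 9, against 32.4%. The Ldha window held 5 matches to ACGTG and 2 to GCGTG, the Pfkp window 4 to GCGTG, the Pdk1 window 2 to GCGTG and the Pgk1 window 2 to ACGTG. The Slc2a1 window held 1 of each. Among the windows not printed, that of Egln3 held 1 match to ACGTG and 0 to GCGTG, and that of Ankrd37 held 2 to each. Both motifs contain a CG, and the 9 windows held 16 to 30 CG each, against a median of 7 over all promoters. Among the 7372 promoters with that number of CG, 70.0% held either motif and 28.5% held ACGTG. A match to 5 letters is a description of the sequence, and binding was not measured.

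Rnf2, the gene of Ring1b, averaged 49.4 TPM in Ring1b-KO and 22.8 TPM in Ring1a/b-dKO, against 71.3 TPM in WT. Ring1, the gene of Ring1a, averaged 4.05 ± 1.31 TPM in Ring1a-KO and 6.09 ± 3.33 TPM in Ring1a/b-dKO, against 7.21 ± 0.182 TPM in WT. Pcgf6 averaged 0.0567 TPM in Pcgf-4KO and 10.6 TPM in Pcgf-6KO, against 53.0 TPM in WT. Pcgf1 and Pcgf2 averaged 3.03 and 16.8 TPM in Pcgf-6KO, against 10.9 and 68.6 TPM in WT. Pcgf3 averaged 11.8 ± 0.501 TPM in Pcgf-4KO and 12.4 ± 2.5 TPM in Pcgf-6KO, against 13.2 ± 0.43 TPM in WT. Bmi1, the gene of Pcgf4, averaged 15.6 TPM in Pcgf-6KO, against 1.6 TPM in WT, and Pcgf5 14.5 TPM in Pcgf-4KO and 22.1 TPM in Pcgf-6KO, against 9.55 TPM in WT. Transcripts can remain after a deletion, and the labels do not state which exons were removed. The levels of these last 3 genes therefore leave their labels unchecked. So does the level of Ring1 in Ring1a/b-dKO, where it spread widely. All 8 embryonic stem cell markers examined were at 1 TPM or more in every group, and of the 8 fibroblast markers 1 to 3 were. In bulk RNA such as this, fewer cells of a type and less RNA per cell cannot be told apart. Small noncoding RNAs took 2.72% of the TPM in replicate 2 of Ring1a-KO and 1.27% in replicate 3. In replicate 1 they took 0.209%, and 0.318% to 0.634% in the 15 libraries of the other groups, so results for Ring1a-KO are also given without those 2 libraries.

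Slc2a1 and Slc2a3 encode the facilitative glucose transporters GLUT1 and GLUT3, which carry glucose across the cell membrane. Slc2a3 (ENSMUSG00000003153, GRCm38 chr6:122727809-122801640, minus strand) rose in Ring1b-KO, Ring1a/b-dKO, Pcgf-4KO and Pcgf-6KO and fell in Ring1a-KO. Its level was 119, 114 and 114 TPM in Ring1a-KO, 348, 352 and 352 TPM in Ring1b-KO and 325, 309 and 315 TPM in Ring1a/b-dKO. It was 471, 468 and 471 TPM in Pcgf-4KO and 228, 255 and 281 TPM in Pcgf-6KO, against 148, 146 and 148 TPM in WT. No knockout library overlapped the WT libraries, and the groups did not overlap each other, with Pcgf-4KO highest and Ring1a-KO lowest. The log2 fold change against WT was 1.67 ± 0.05 (SE) in Pcgf-4KO (limma, adjusted p = 5.462e-13), 1.25 ± 0.05 in Ring1b-KO (adjusted p = 3.552e-11) and -0.35 ± 0.05 in Ring1a-KO (adjusted p = 0.0001964). In Ring1a/b-dKO it was 1.10 ± 0.05 (adjusted p = 7.449e-11) and in Pcgf-6KO 0.78 ± 0.05 (adjusted p = 2.021e-09). Pcgf-6KO had the widest spread, with an SD of 26.3 TPM around a mean of 255 TPM.

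Slc2a1 (ENSMUSG00000028645, GRCm38 chr4:119108711-119137983, plus strand) moved differently. Its level was 221, 201 and 193 TPM in Ring1a-KO, 120.4, 127 and 123 TPM in Ring1b-KO and 191, 189.5 and 190.1 TPM in Ring1a/b-dKO. It was 232, 226 and 217 TPM in Pcgf-4KO and 321, 338 and 347 TPM in Pcgf-6KO, against 226, 225 and 236 TPM in WT. The Pcgf-6KO libraries lay above all others, the Ring1b-KO libraries below all others, and the Pcgf-4KO libraries overlapped WT. Slc2a1 changed by 0.55 ± 0.05 on the log2 scale in Pcgf-6KO (limma, adjusted p = 3.514e-08), -0.88 ± 0.05 in Ring1b-KO (adjusted p = 5.385e-10) and -0.27 ± 0.05 in Ring1a/b-dKO (adjusted p = 0.0001258). These depended on scaling in size but not in direction: with median ratio scaling the change was 0.31 in Pcgf-6KO and -0.54 in Ring1a/b-dKO. In Pcgf-4KO it was -0.02 ± 0.05 (adjusted p = 0.6631), and with median ratio scaling -0.29, which passed the threshold. The small difference in Ring1a-KO, -0.16 ± 0.05 (adjusted p = 0.02021), did not pass it with quantile normalization or without replicate 2 or 3 of that group or replicate 3 of WT. It also did not pass when limma was fitted to only the groups compared (adjusted p = 0.1135), and it was -0.05 without both replicates 2 and 3.

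TPM is corrected for length, so the levels of the 2 transporters can be added. The share of Slc2a3 in their sum was 36.1 ± 1.08% in Ring1a-KO, 73.9 ± 0.453% in Ring1b-KO, 62.5 ± 0.516% in Ring1a/b-dKO, 67.6 ± 0.739% in Pcgf-4KO and 43.1 ± 1.58% in Pcgf-6KO, against 39.2 ± 0.551% in WT (SD, n = 3 each). Slc2a3 was thus the more abundant of the pair in Ring1b-KO, Ring1a/b-dKO and Pcgf-4KO, and Slc2a1 in the other groups. A single scaling factor per library, such as median ratio scaling, leaves the share unchanged, and its ranges did not overlap between any knockout and WT. The sum was 320.0 ± 17.3 TPM in Ring1a-KO, 474 ± 5.17 TPM in Ring1b-KO, 507 ± 8.61 TPM in Ring1a/b-dKO, 695 ± 7.87 TPM in Pcgf-4KO and 590.0 ± 39.6 TPM in Pcgf-6KO, against 376 ± 6.86 TPM in WT.

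**Figure D1:**
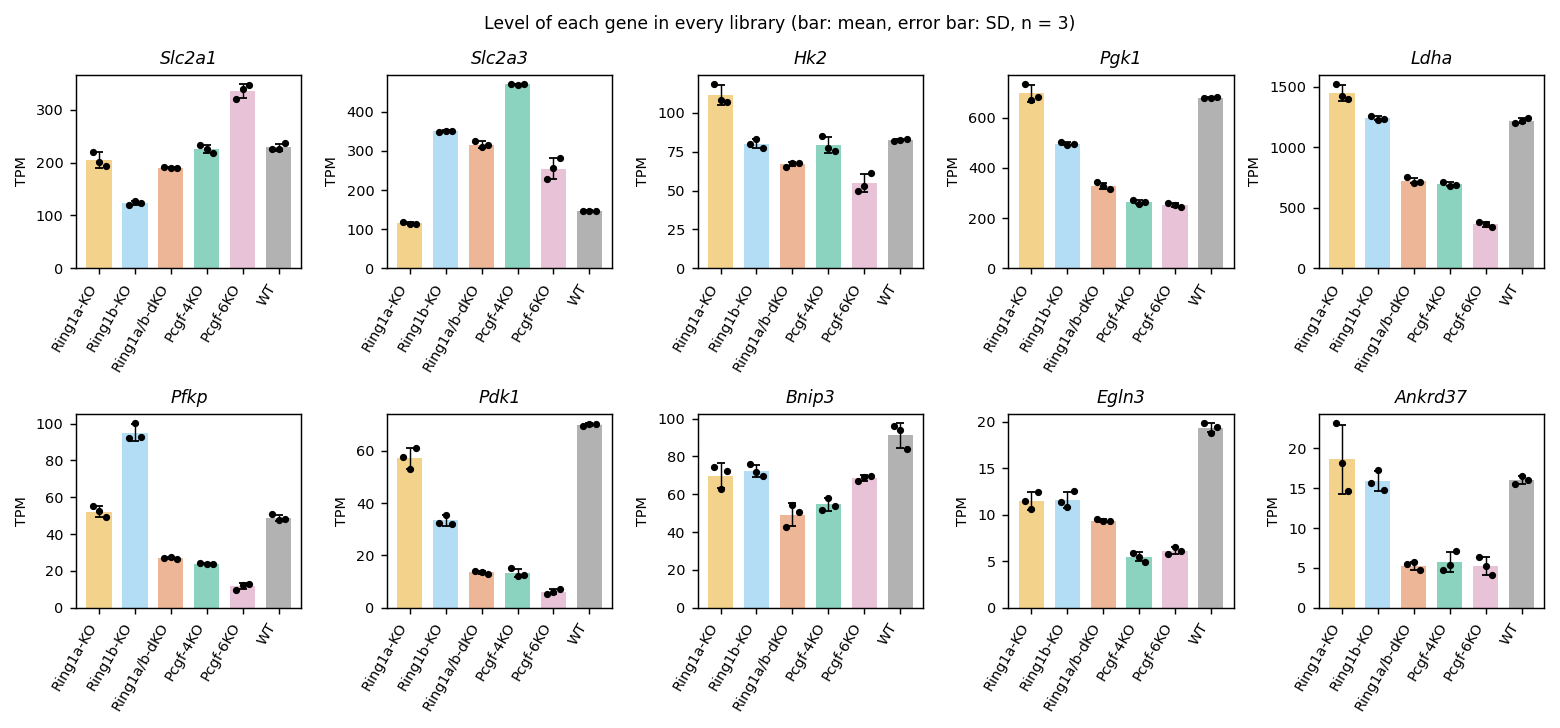
Level in TPM of each of the 10 genes (vertical axis) in the 6 groups (horizontal axis), with 1 point per library, bars at the mean and error bars of 1 SD (n = 3). Slc2a3 stands higher in 4 knockout groups than in WT, while Pgk1, Pdk1 and Egln3 stand lowest in the Pcgf groups, with Pdk1 at 6.07 TPM in Pcgf-6KO against 70.0 TPM in WT.

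Hexokinase 2 (Hk2, ENSMUSG00000000628, GRCm38 chr6:82725025-82774454, minus strand) phosphorylates glucose and so traps it in the cell. It rose in Ring1a-KO and fell in Ring1a/b-dKO and Pcgf-6KO. Its level was 119, 108 and 107 TPM in Ring1a-KO, 80.1, 82.8 and 77.5 TPM in Ring1b-KO and 65.3, 67.4 and 67.8 TPM in Ring1a/b-dKO. It was 85.0, 77.5 and 75.2 TPM in Pcgf-4KO and 49.7, 53.1 and 61.3 TPM in Pcgf-6KO, against 82.0, 82.7 and 83.0 TPM in WT. The Ring1a-KO libraries lay above all others and the Pcgf-6KO libraries below all others, while Ring1b-KO and Pcgf-4KO overlapped WT. On the log2 scale Hk2 changed by 0.42 ± 0.07 in Ring1a-KO (limma, adjusted p = 0.000266), -0.30 ± 0.07 in Ring1a/b-dKO (adjusted p = 0.0008811) and -0.59 ± 0.07 in Pcgf-6KO (adjusted p = 8.338e-07). With median ratio scaling the value in Ring1a/b-dKO was -0.57. That in Pcgf-4KO, -0.06 ± 0.07 (adjusted p = 0.4352), was -0.32 after median ratio scaling and -0.24 after quantile normalization, both past the threshold. Hk2 made up 83.9 ± 0.241% of the summed TPM of Hk1 and Hk2 in Ring1a-KO and 64.9 ± 1.31% in Ring1a/b-dKO, against 84.1 ± 0.733% in WT. Hk1 averaged 36.2 TPM in Ring1a/b-dKO, against 15.6 TPM in WT. The sum of both was 133 ± 7.29 TPM in Ring1a-KO, 107 ± 2.92 TPM in Ring1b-KO and 103 ± 3.99 TPM in Ring1a/b-dKO. It was 104 ± 4.39 TPM in Pcgf-4KO and 78.7 ± 8.94 TPM in Pcgf-6KO, against 98.2 ± 1.2 TPM in WT.

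Pfkp (ENSMUSG00000021196, GRCm38 chr13:6579768-6648777, minus strand) encodes the platelet-type subunit of phosphofructokinase 1, which catalyses the committed step of glycolysis. It rose in Ring1b-KO and fell in Ring1a/b-dKO, Pcgf-4KO and Pcgf-6KO. Its level was 55.0, 52.4 and 49.3 TPM in Ring1a-KO, 92.2, 100.3 and 92.8 TPM in Ring1b-KO and 27.2, 27.6 and 26.6 TPM in Ring1a/b-dKO. It was 24.5, 24.0 and 23.5 TPM in Pcgf-4KO and 9.78, 12.2 and 12.9 TPM in Pcgf-6KO, against 50.8, 47.8 and 48.2 TPM in WT. Every Ring1b-KO library lay above every other library, every Pcgf-6KO library lay below, and Ring1a-KO overlapped WT. Against WT, Pfkp changed by 0.94 ± 0.07 on the log2 scale in Ring1b-KO (limma, adjusted p = 5.116e-08), -0.83 ± 0.07 in Ring1a/b-dKO (adjusted p = 1.1e-07) and -1.99 ± 0.07 in Pcgf-6KO (adjusted p = 2.393e-12). The fall in Pcgf-4KO passed the threshold as well (adjusted p = 1.335e-08). Pfkp made up 42.3 ± 1.3% of the summed TPM of the 3 phosphofructokinase genes (Pfkp, Pfkl and Pfkm) in Ring1b-KO and 14.0 ± 1.79% in Pcgf-6KO, against 25.1 ± 0.826% in WT. The Pfkp span overlaps Pitrm1 on the opposite strand (28.4 to 69.9 TPM), and the strand setting of the counting is not given in the sources used here, so reads of the 2 genes may not be fully separated.

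Pgk1 (ENSMUSG00000062070, GRCm38 chrX:106187100-106203699, plus strand) encodes phosphoglycerate kinase 1, which makes the first ATP of the pathway. It fell in 4 of the 5 knockouts. Its level was 735, 671 and 683 TPM in Ring1a-KO, 502, 492 and 496 TPM in Ring1b-KO and 342, 327 and 316 TPM in Ring1a/b-dKO. It was 271, 256 and 264 TPM in Pcgf-4KO and 259, 253 and 243 TPM in Pcgf-6KO, against 680.1, 677 and 683 TPM in WT. Ring1a-KO overlapped WT, Pcgf-6KO overlapped Pcgf-4KO, and the other groups stood apart from both and from each other. The log2 fold change was -0.45 ± 0.04 in Ring1b-KO (limma, adjusted p = 1.371e-07), -1.05 ± 0.04 in Ring1a/b-dKO (adjusted p = 4.945e-12), -1.36 ± 0.04 in Pcgf-4KO (adjusted p = 1.809e-13) and -1.43 ± 0.04 in Pcgf-6KO (adjusted p = 6.163e-14). Of the 50-base stretches of its transcripts, 53.8% also occur in the copy Pgk1-rs7, and the genes that share sequence with Pgk1 summed to at most 0.92 TPM in any library.

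Ldha (ENSMUSG00000063229, GRCm38 chr7:46841475-46855627, plus strand) encodes the A subunit of lactate dehydrogenase, which makes lactate from pyruvate, and was the most abundant of the 10 genes in every library but replicate 3 of Pcgf-6KO, where Slc2a1 was. It rose in Ring1a-KO and fell in Ring1a/b-dKO, Pcgf-4KO and Pcgf-6KO. Its level was 1527, 1423 and 1400.2 TPM in Ring1a-KO, 1259, 1229 and 1236 TPM in Ring1b-KO and 754, 709 and 716 TPM in Ring1a/b-dKO. It was 716, 680.4 and 693 TPM in Pcgf-4KO and 383, 366 and 345 TPM in Pcgf-6KO, against 1206, 1219 and 1244 TPM in WT. Ring1a-KO stood above all others, Ring1b-KO overlapped WT, Pcgf-4KO overlapped Ring1a/b-dKO, and Pcgf-6KO stood below all others. Ldha changed by 0.24 ± 0.04 on the log2 scale in Ring1a-KO (limma, adjusted p = 0.0005705), -0.75 ± 0.04 in Ring1a/b-dKO (adjusted p = 4.172e-10), -0.81 ± 0.04 in Pcgf-4KO (adjusted p = 1.707e-10) and -1.74 ± 0.04 in Pcgf-6KO (adjusted p = 1.303e-14). In Ring1b-KO it was 0.02 ± 0.04 (adjusted p = 0.6897), -0.06 after median ratio scaling and 0.18 after quantile normalization, where it passed the threshold (adjusted p = 0.006038). Ldhb, the gene of the other main subunit, was the smaller part of the sum throughout: Ldha made up 94.1 ± 0.212% of it in Ring1a-KO, 93.4 ± 0.0869% in Ring1b-KO and 82.8 ± 0.506% in Pcgf-6KO, against 88.6 ± 0.111% in WT. Of the 50-base stretches of Ldha transcripts, 9.04% also occur in 1 or more of 167 other genes, which summed to 4405 to 5129 TPM per library, so the split of those reads is uncertain.

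Pdk1 (ENSMUSG00000006494, GRCm38 chr2:71873224-71903858, plus strand) encodes pyruvate dehydrogenase kinase 1, which switches off the enzyme that brings pyruvate into the citric acid cycle. It fell furthest of the 10 genes in Ring1b-KO, Ring1a/b-dKO, Pcgf-4KO and Pcgf-6KO. Its level was 57.7, 53.0 and 60.9 TPM in Ring1a-KO, 32.4, 35.6 and 32.0 TPM in Ring1b-KO and 14.2, 13.6 and 12.8 TPM in Ring1a/b-dKO. It was 15.2, 12.2 and 12.6 TPM in Pcgf-4KO and 5.12, 5.96 and 7.13 TPM in Pcgf-6KO, against 69.3, 70.2 and 70.4 TPM in WT. No knockout library reached a WT library, Pcgf-4KO overlapped Ring1a/b-dKO, and Pcgf-6KO stood below all others. Log2 fold changes of Pdk1 were -1.05 ± 0.10 in Ring1b-KO (limma, adjusted p = 2.645e-07), -2.29 ± 0.10 in Ring1a/b-dKO (adjusted p = 1.905e-11), -2.31 ± 0.10 in Pcgf-4KO (adjusted p = 1.538e-11) and -3.34 ± 0.10 in Pcgf-6KO (adjusted p = 1.1e-13). The smaller fall in Ring1a-KO, -0.29 ± 0.10 (adjusted p = 0.04155), lay close to the threshold and missed it without replicate 1 or 2 of Ring1a-KO or without any 1 of the WT replicates. It also missed it with a pseudocount of 0.1 TPM (adjusted p = 0.05401) and with no filter (adjusted p = 0.07938). The same held with nuclear protein-coding genes alone (adjusted p = 0.05798) and with a replicate block (adjusted p = 0.06065). Without both replicates 2 and 3 of Ring1a-KO the change was -0.27. Pdk1 made up 70.4 ± 1.27% of the summed TPM of Pdk1 to Pdk4 in Ring1a-KO, 54.1 ± 2.16% in Ring1b-KO, 35.6 ± 3.09% in Ring1a/b-dKO, 37.4 ± 3.8% in Pcgf-4KO and 22.5 ± 2.41% in Pcgf-6KO, against 73.0 ± 0.463% in WT (SD, n = 3 each). The family sum was 26.8 ± 1.61 TPM in Pcgf-6KO, against 95.8 ± 0.235 TPM in WT.

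Bnip3, Egln3 and Ankrd37 are HIF targets outside glycolysis. Bnip3 (ENSMUSG00000078566, GRCm38 chr7:138890836-138909519, minus strand), a mitochondrial protein that promotes mitophagy, fell in all 5 knockouts. Its level was 74.6, 62.6 and 72.5 TPM in Ring1a-KO, 75.8, 72.0 and 69.6 TPM in Ring1b-KO and 42.7, 54.4 and 50.5 TPM in Ring1a/b-dKO. It was 51.7, 58.2 and 54.0 TPM in Pcgf-4KO and 67.0, 69.2 and 69.5 TPM in Pcgf-6KO, against 96.0, 93.7 and 83.8 TPM in WT. All WT libraries lay above all knockout libraries. Ring1a-KO overlapped both Ring1b-KO and Pcgf-6KO, and Ring1a/b-dKO overlapped Pcgf-4KO. The log2 fold change lay between -0.88 ± 0.08 in Ring1a/b-dKO (limma, adjusted p = 2.165e-07) and -0.33 ± 0.08 in Ring1b-KO (adjusted p = 0.004504). In Ring1a-KO it was -0.38 ± 0.08 (limma, adjusted p = 0.004229), and -0.28 without both replicates 2 and 3 of that group. In Pcgf-6KO it was -0.40 ± 0.08 (adjusted p = 0.0004872), and -0.64 with median ratio scaling. Of its 50-base stretches 13.5% also occur in the copy Gm16439, and the genes sharing sequence with Bnip3 summed to at most 0.43 TPM.

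Egln3 (ENSMUSG00000035105, GRCm38 chr12:54178981-54203860, minus strand) encodes PHD3, one of the prolyl hydroxylases that act on HIF, and is itself induced by HIF. It fell in all 5 knockouts. Its level was 11.5, 10.6 and 12.5 TPM in Ring1a-KO, 11.4, 10.8 and 12.6 TPM in Ring1b-KO and 9.52, 9.29 and 9.34 TPM in Ring1a/b-dKO. It was 5.93, 5.51 and 4.96 TPM in Pcgf-4KO and 5.74, 6.51 and 6.15 TPM in Pcgf-6KO, against 19.8, 18.8 and 19.5 TPM in WT. The WT libraries lay above all others, Ring1a-KO overlapped Ring1b-KO, and Pcgf-6KO overlapped Pcgf-4KO. The log2 fold change was -0.71 ± 0.07 in Ring1a-KO (limma, adjusted p = 7.064e-06), -0.70 ± 0.07 in Ring1b-KO (adjusted p = 1.488e-06), -0.97 ± 0.07 in Ring1a/b-dKO (adjusted p = 1.809e-08) and -1.66 ± 0.07 in Pcgf-4KO (adjusted p = 3.972e-11). In Pcgf-6KO it was -1.52 ± 0.07 (adjusted p = 5.952e-11). Egln3 made up 9.7 ± 0.614% of the summed TPM of Egln1, Egln2 and Egln3 in Pcgf-4KO and 10.7 ± 0.297% in Pcgf-6KO, against 31.1 ± 0.417% in WT.

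Ankrd37 (ENSMUSG00000050914, GRCm38 chr8:45996902-46005707, minus strand), an ankyrin repeat protein, fell in the 3 knockouts that remove more than 1 gene. Its level was 23.2, 18.1 and 14.6 TPM in Ring1a-KO, 15.6, 17.3 and 14.8 TPM in Ring1b-KO and 5.43, 5.69 and 4.73 TPM in Ring1a/b-dKO. It was 4.74, 5.40 and 7.16 TPM in Pcgf-4KO and 6.40, 5.29 and 4.07 TPM in Pcgf-6KO, against 15.6, 16.5 and 16.0 TPM in WT. The 9 libraries of Ring1a/b-dKO, Pcgf-4KO and Pcgf-6KO lay below the other 9 and overlapped one another by group, and the single knockouts overlapped WT. Log2 fold changes of Ankrd37 were -1.44 ± 0.16 in Ring1a/b-dKO (limma, adjusted p = 1.335e-06), -1.35 ± 0.16 in Pcgf-4KO (adjusted p = 2.862e-06) and -1.46 ± 0.16 in Pcgf-6KO (adjusted p = 7.985e-07). Ankrd37 overlaps Ufsp2 on the opposite strand (12.12 to 33.29 TPM), with the same limit as for Pfkp.

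**Figure D2:**
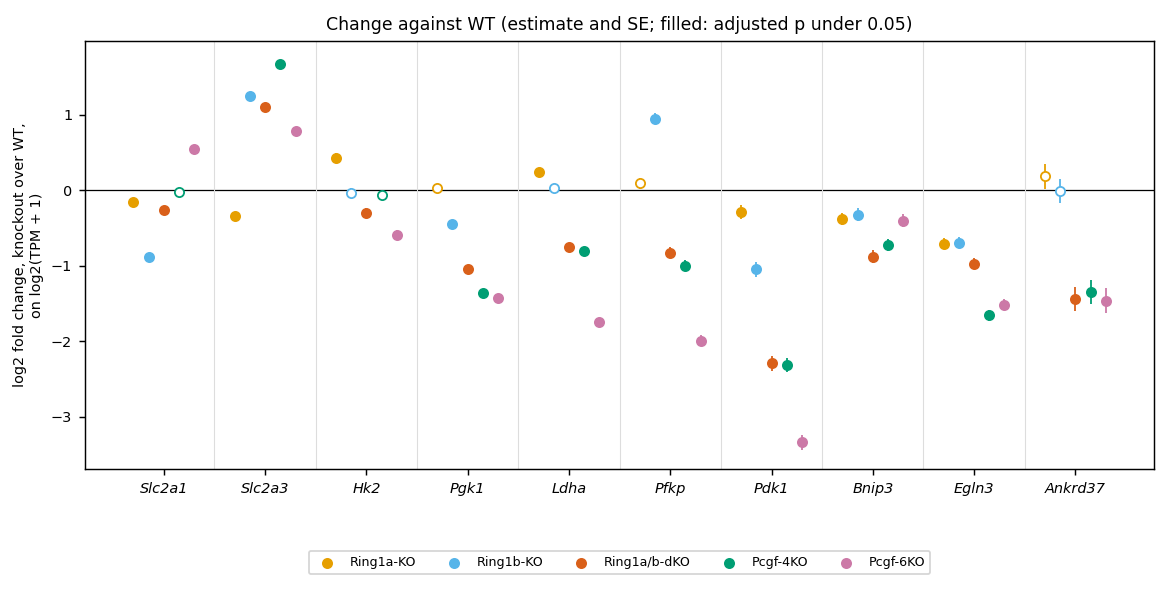
Log2 fold change against WT on log2(TPM + 1) (vertical axis) of each gene (horizontal axis) in the 5 knockouts (colours), with error bars of 1 SE from limma and filled points where the adjusted p is under 0.05. Pdk1 reaches -3.34 in Pcgf-6KO, and Slc2a3 lies above 0 in 4 knockouts and Slc2a1 in Pcgf-6KO, while Bnip3 and Egln3 lie below 0 in all 5.

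Set side by side, the knockouts differed in how many of the 10 genes were called at an adjusted p under 0.05, and many genes of the whole table were called too. In Ring1a-KO 2 rose (Hk2, Ldha) and 5 fell (Slc2a1, Slc2a3, Pdk1, Bnip3, Egln3), where 23.1% of the 17842 genes tested were called, 12.3% higher and 10.8% lower. Without replicates 2 and 3 of Ring1a-KO, a choice made after seeing the data, 4 were called, namely Hk2 and Ldha higher and Slc2a3 and Egln3 lower, and 2149 genes in all against 4123. In Ring1b-KO 2 rose (Slc2a3, Pfkp) and 5 fell (Slc2a1, Pgk1, Pdk1, Bnip3, Egln3), where 51.8% of all genes were called, 34.7% higher and 17.1% lower. In Ring1a/b-dKO Slc2a3 rose and the other 9 fell, where 64.4% of all genes were called. In Pcgf-4KO Slc2a3 rose and 7 fell, where 65% were called, and in Pcgf-6KO Slc2a1 and Slc2a3 rose and the other 8 fell, where 74.2% were called.

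Falls were the less common call over all genes. In Ring1a/b-dKO 48.6% of all genes were called higher and 15.8% lower, in Pcgf-4KO 47.1% higher and 17.9% lower, and in Pcgf-6KO 51.7% higher and 22.5% lower. The median log2 fold change of the 10 genes was -0.85 in Ring1a/b-dKO, against 0.28 over all genes tested. It was -0.90 in Pcgf-4KO, against 0.25 over all genes, and -1.45 in Pcgf-6KO, against 0.33 over all genes. In the single knockouts it was -0.06 in Ring1a-KO and -0.18 in Ring1b-KO, against 0.01 and 0.13 over all genes. With other scalings fewer of the called genes were higher: in Ring1a/b-dKO 56.7% after median ratio scaling and 48.2% after quantile normalization, against 75.5% of those called as deposited. In Pcgf-6KO these shares were 57.9% and 46.6%, against 69.6%, and in Pcgf-4KO 54.5% and 49.6%, against 72.5%. In Ring1b-KO they were 58.0% and 46.4%, against 67.0%. After median ratio scaling the median of the 10 genes was -1.12 in Ring1a/b-dKO, against 0.07 over all genes, -1.16 in Pcgf-4KO, against 0.05, and -1.67 in Pcgf-6KO, against 0.14. After quantile normalization it was -0.99 in Ring1a/b-dKO, against -0.03 over all genes, -1.06 in Pcgf-4KO, against -0.02, and -1.54 in Pcgf-6KO, against -0.06. No call or direction of any of the 10 genes changed with scaling in Ring1a/b-dKO or Pcgf-6KO. All 5 comparisons use the same 3 WT libraries, so they are not independent of each other.

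Falls of at least 2-fold on the log2(TPM + 1) scale were made by 3 of the 10 genes in Ring1a/b-dKO (Pgk1, Pdk1, Ankrd37), where 2.85% of all genes fell that far. In Pcgf-4KO 4 did so (Pgk1, Pdk1, Egln3, Ankrd37), where 3.97% of all genes did, and in Pcgf-6KO 6 (Pgk1, Ldha, Pfkp, Pdk1, Egln3, Ankrd37), where 6.19% did. In Ring1b-KO Pdk1 alone fell that far, where 2.37% of all genes did, and in Ring1a-KO none of the 10, where 0.846% did. The genes tested include some under 1 TPM in WT, which cannot fall 2-fold on this scale and so lower these shares. Ankrd37, the lowest of the 10 genes in WT, averaged 16.0 TPM there. Slc2a3 was the one gene of the 10 to rise at least 2-fold, in Ring1b-KO (8.25% of all genes), Ring1a/b-dKO (17% of all genes) and Pcgf-4KO (14.5% of all genes). These counts depended on scaling. Falls of at least 2-fold numbered 7 in Ring1a/b-dKO after median ratio scaling and 5 after quantile normalization, where Pgk1 (-0.96) was not among them. In Pcgf-4KO they numbered 6 and 5, in Pcgf-6KO 6 and 6, and in Ring1b-KO 1 and 1. Shares of all genes that changed at least 2-fold were counted only on the values as deposited, here and below. The rescaled counts thus have no share beside them. Calls of any size moved too: in Ring1a/b-dKO 2812 genes were called lower as deposited, 4904 after median ratio scaling and 5730 after quantile normalization. The rise of Slc2a3 in Ring1a/b-dKO was 0.83 after median ratio scaling, under 2-fold.

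Trophoblast and primitive endoderm markers stood higher in the same groups, and also in Ring1b-KO. The summed level of 6 trophoblast markers was 674.4 to 697 TPM in Pcgf-6KO, 256 to 269 TPM in Pcgf-4KO and 240.7 to 255 TPM in Ring1a/b-dKO, against 22.6 to 23.2 TPM in WT, and all 6 were at 1 TPM or more in these knockouts. In Ring1b-KO the sum was 60.4 to 62.7 TPM, and in Ring1a-KO 21.7 to 22.9 TPM. Hand1 alone averaged 525 TPM in Pcgf-6KO, 169 TPM in Pcgf-4KO and 154 TPM in Ring1a/b-dKO, against 2.45 TPM in WT. Each trophoblast marker was called higher in every knockout but Ring1a-KO, where Hand1 and Elf5 were called higher and Tfap2c lower. The summed level of 6 primitive endoderm markers was 23.5 to 27.5 TPM in Ring1b-KO, 38.3 to 42.4 TPM in Ring1a/b-dKO, 17.9 to 19.0 TPM in Pcgf-4KO and 30.8 to 36.1 TPM in Pcgf-6KO, against 1.02 to 1.67 TPM in WT. It was thus higher in Ring1b-KO than in Pcgf-4KO. The 8 fibroblast markers summed to 19.7 to 21.8 TPM in Ring1a/b-dKO, 9.09 to 12.4 TPM in Pcgf-4KO and 11.6 to 14.3 TPM in Pcgf-6KO, against 13.6 to 16.4 TPM in WT. The 8 embryonic stem cell markers summed to 1854 to 2297 TPM in Pcgf-6KO, 2876 to 3193 TPM in Ring1a/b-dKO and 3702 to 3830 TPM in Pcgf-4KO, against 4529 to 4593 TPM in WT. In Ring1b-KO they summed to 7542 to 8185 TPM, where Dppa5a alone averaged 4761 TPM, against 1794 TPM in WT. There Nanog, Zfp42, Esrrb, Tdgf1 and Dppa5a were called higher and Pou5f1, Sox2 and Utf1 lower. Zfp42 and Esrrb were called higher in Ring1a/b-dKO and Zfp42 in Pcgf-6KO, and the other markers lower in these 2 groups. In Pcgf-4KO the stem cell markers were split. Nanog, Zfp42 and Dppa5a were called higher there, Pou5f1, Sox2, Tdgf1 and Utf1 lower, and Esrrb was not called. No marker of these 3 lists was at 0 over a group, while the fibroblast marker Lum was at 0 in Ring1b-KO and Ring1a/b-dKO. The part of these shifts in the falls of the glycolysis genes was not tested.

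The double knockout was set against Ring1b-KO, which by the labels asks what losing Ring1a adds when Ring1b is already missing. Rnf2 was not alike in the 2 groups, at 49.4 ± 3.13 TPM in Ring1b-KO and 22.8 ± 2.94 TPM in Ring1a/b-dKO. Ring1 averaged 9.87 ± 1.78 TPM in Ring1b-KO and 6.09 ± 3.33 TPM in Ring1a/b-dKO. Added loss of Ring1a therefore cannot be told apart from other differences between these groups. Of the 10 genes, Slc2a1 rose and the other 9 fell, where 59.9% of all genes were called, 41.1% higher and 18.8% lower. Of the called genes 68.6% were higher, but 51.7% after median ratio scaling and 52.0% after quantile normalization. Falls of at least 2-fold, made by 4.08% of all genes, were those of Pfkp (-1.77 ± 0.07, limma, adjusted p = 3.839e-11), Ankrd37 (-1.43 ± 0.16, adjusted p = 2.161e-06) and Pdk1 (-1.24 ± 0.10, adjusted p = 3.333e-08). Pfkp averaged 27.1 ± 0.496 TPM in Ring1a/b-dKO, against 95.1 ± 4.5 TPM in Ring1b-KO, and Ankrd37 averaged 5.28 ± 0.497 TPM in Ring1a/b-dKO, against 15.9 ± 1.27 TPM in Ring1b-KO (SD, n = 3 each). Ldha fell by 0.77 and Pgk1 by 0.60 on the log2 scale, and Slc2a1 rose by 0.62. The smallest fall, that of Slc2a3 (-0.15 ± 0.05, adjusted p = 0.0244), missed the threshold without replicate 2 or 3 of either group, and that of Egln3 (-0.27 ± 0.07) was -0.58 with quantile normalization. That of Hk2 (-0.26 ± 0.07) was -0.44 with median ratio scaling.

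The limit just given holds for the interaction of the 2 knockouts too. This interaction asks whether the change in Ring1a/b-dKO differs from the sum of the changes in Ring1a-KO and Ring1b-KO on the log2 scale. It was called for 9 of the 10 genes, where 48.7% of all genes were called, 33.2% higher and 15.5% lower. Of the called genes 68.1% were higher, but 52.1% after median ratio scaling and 53.6% after quantile normalization. Interactions of -1 or lower, found for 5.06% of all genes, were those of Pfkp, Ankrd37 and Ldha. After median ratio scaling Pdk1 (-1.11) joined them, and after quantile normalization they were Pfkp, Ankrd37 and Pdk1. For 6 genes the double knockout lay lower than the sum (Hk2, Pgk1, Ldha, Pfkp, Pdk1, Ankrd37), and for 3 higher (Slc2a1, Slc2a3, Egln3). Pfkp changed by -0.83 in Ring1a/b-dKO where the single knockouts summed to 1.04, an interaction of -1.86 ± 0.11 (SE, limma, adjusted p = 2.757e-09). Ankrd37 changed by -1.44 where the sum was 0.17, and its interaction was -1.61 ± 0.23 (adjusted p = 3.703e-05). Ldha changed by -0.75 where the sum was 0.27, an interaction of -1.02 ± 0.06 (adjusted p = 3.43e-09). Pdk1 fell in both single knockouts, yet its -2.29 in the double knockout lay below their sum of -1.34. Slc2a1 changed by -0.27 where the sum was -1.05, an interaction of 0.78 ± 0.07 (adjusted p = 1.895e-07). For Bnip3 the interaction was -0.17 ± 0.12 (adjusted p = 0.2464), and it passed the threshold after median ratio scaling (-0.34) and after quantile normalization (-0.33). For Slc2a3 it was 0.20 ± 0.07 (adjusted p = 0.03502), but 0.03 after median ratio scaling, where it missed the threshold. It also missed it with quantile normalization (adjusted p = 0.05098), with no filter (adjusted p = 0.06173) and with nuclear protein-coding genes (adjusted p = 0.2414). The same held when any 1 of 10 of the 12 libraries was left out, replicate 1 of Ring1a-KO and replicate 2 of Ring1a/b-dKO being the exceptions. For Egln3 it was 0.43 ± 0.11 (adjusted p = 0.003381), but 0.14 after quantile normalization (adjusted p = 0.257).

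**Figure D3:**
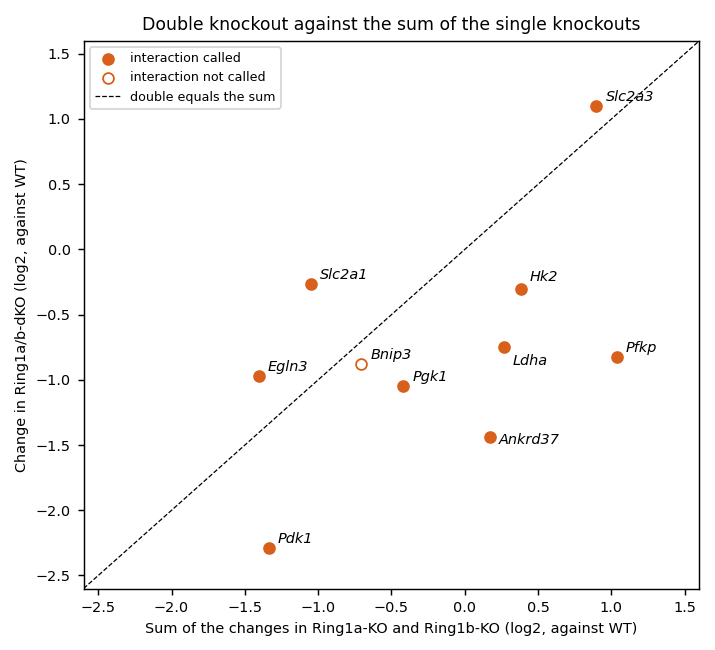
Log2 change against WT in Ring1a/b-dKO (vertical axis) plotted against the sum of the changes in Ring1a-KO and Ring1b-KO (horizontal axis) for the 10 genes, where the dashed line marks equality and filled points are genes with a called interaction. Pfkp, Ldha, Ankrd37 and Hk2 have a positive sum and a negative value in the double knockout, and Bnip3 is the open point near the line.

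Pcgf-6KO was set against Pcgf-4KO, which by their labels differ in Pcgf2 and Pcgf4 (gene Bmi1), the Pcgf subunits of canonical PRC1. Pcgf2 averaged 16.8 TPM in Pcgf-6KO and 55.3 TPM in Pcgf-4KO, but Bmi1 15.6 and 11.4 TPM. Pcgf6, lacking in both by label, averaged 10.6 TPM in Pcgf-6KO and 0.0567 TPM in Pcgf-4KO. Loss of Pcgf2 and Pcgf4 therefore cannot be told apart from other differences between these groups. Slc2a1 and Bnip3 rose and 5 genes fell (Slc2a3, Hk2, Ldha, Pfkp, Pdk1), where 52.8% of all genes were called, 28.8% higher and 24% lower. Of the called genes 54.6% were higher, but 41.3% with quantile normalization. Among the 10 genes Pdk1 alone fell at least 2-fold, where 1.81% of all genes did. None did after median ratio scaling (Pdk1 -0.99), and Ldha, Pfkp and Pdk1 did after quantile normalization. Pdk1 averaged 6.07 ± 1.01 TPM in Pcgf-6KO, against 13.3 ± 1.65 TPM in Pcgf-4KO, a log2 fold change of -1.02 ± 0.10 (limma, adjusted p = 4.114e-07). Pfkp averaged 11.6 ± 1.64 TPM in Pcgf-6KO, against 24.0 ± 0.505 TPM in Pcgf-4KO (-0.99 ± 0.07, adjusted p = 3.677e-08). Ldha averaged 365 ± 18.9 TPM in Pcgf-6KO, against 696 ± 18.3 TPM in Pcgf-4KO (-0.93 ± 0.04, adjusted p = 1.307e-10). The transporters moved in opposite directions, Slc2a1 by 0.57 ± 0.05 (adjusted p = 8.553e-08) and Slc2a3 by -0.88 ± 0.05 (adjusted p = 2.579e-09). The differences of Pgk1 (-0.07 ± 0.04, adjusted p = 0.1572), Egln3 (0.14 ± 0.07, adjusted p = 0.1229) and Ankrd37 (-0.12 ± 0.16, adjusted p = 0.5793) did not pass the threshold. That of Pgk1 passed it as a fall when values were quantile normalized or only nuclear protein-coding genes were kept, and that of Egln3 as a rise with median ratio scaling (0.16).

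**Figure D4:**
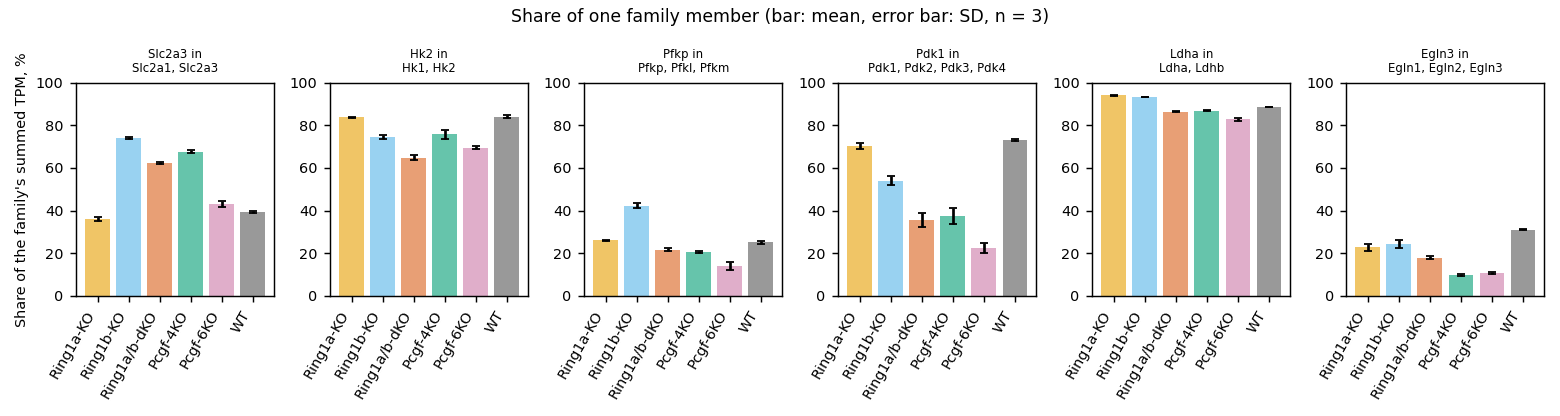
Share of 1 member in the summed TPM of its gene family, in percent (vertical axis), in the 6 groups (horizontal axis), with bars at the mean and error bars of 1 SD (n = 3). The share of Slc2a3 is highest in Ring1b-KO at 73.9%, that of Pfkp is highest in Ring1b-KO at 42.3%, and that of Pdk1 is 22.5% in Pcgf-6KO against 73.0% in WT.

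Among 17 other glycolytic enzymes and regulators, 10 fell and 6 rose in Ring1a/b-dKO, 9 fell and 5 rose in Pcgf-4KO, 12 fell and 5 rose in Pcgf-6KO, 10 fell and 4 rose in Ring1b-KO, and 1 fell and 1 rose in Ring1a-KO. Their median log2 fold change was -0.38 in Ring1a/b-dKO, -0.46 in Pcgf-4KO, -0.74 in Pcgf-6KO, -0.17 in Ring1b-KO and 0.06 in Ring1a-KO, against the medians over all genes given above. Eno1, the main enolase gene in these cells, averaged 668 TPM in Pcgf-6KO, against 2109 TPM in WT (-1.66 ± 0.03, limma, adjusted p = 3.411e-15), and Aldoc, an aldolase gene, 5.7 TPM in Pcgf-6KO, against 21.4 TPM in WT (-1.73 ± 0.12, adjusted p = 2.123e-09). The exceptions included Eno2, the neuronal enolase, at 8.94 TPM in Ring1a/b-dKO, against 2.06 TPM in WT (1.71 ± 0.20, adjusted p = 2.603e-06), and Pfkfb3, which makes the activator of phosphofructokinase 1, at 28.6 TPM in Pcgf-6KO, against 5.71 TPM in WT (2.12 ± 0.11, adjusted p = 1.653e-10). Summed over 18 enzymes from glucose to lactate, Hk2, Pfkp, Pgk1 and Ldha among them, the level was 16348 ± 1148 TPM in Ring1a-KO, 12577 ± 107 TPM in Ring1b-KO, 10129 ± 147 TPM in Ring1a/b-dKO, 8856 ± 102 TPM in Pcgf-4KO and 6591 ± 97.5 TPM in Pcgf-6KO, against 16435 ± 390.0 TPM in WT. That is 0.616 of the WT level in Ring1a/b-dKO and 0.401 in Pcgf-6KO, and without Gapdh, the most abundant of them, 0.606 in Ring1a/b-dKO and 0.433 in Pcgf-6KO. These ratios hold for TPM as deposited and depend on scaling. The median of the 17 other genes was -0.65 in Ring1a/b-dKO and -0.98 in Pcgf-6KO after median ratio scaling. After quantile normalization it was -0.39 in Ring1a/b-dKO and -0.82 in Pcgf-6KO.

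**Figure D5:**
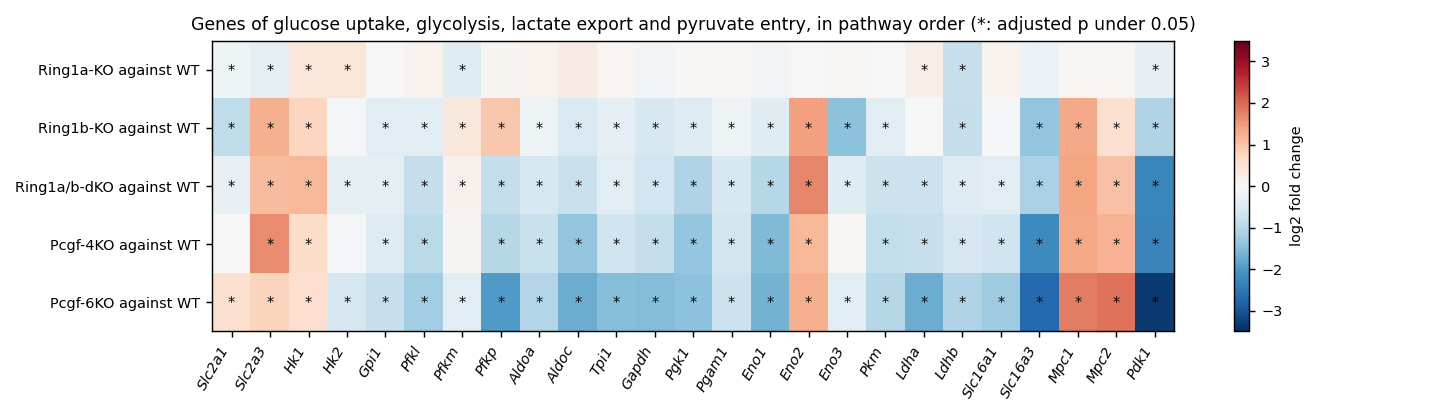
Log2 fold change against WT (colour) of 25 genes from glucose uptake to pyruvate entry in pathway order (horizontal axis) in the 5 knockouts (vertical axis), with a star where the adjusted p is under 0.05. Most enzyme columns are blue in the lower rows, the Slc2a3, Hk1, Eno2, Mpc1 and Mpc2 columns are red in the lower 4 rows, and the Pdk1 and Slc16a3 columns are the darkest blue in Pcgf-6KO.

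At the end of the pathway, the largest falls among the genes of lactate and pyruvate handling were those of 2 lactate exporters. The largest rises were those of 2 pyruvate carrier genes, and each of these changes was largest in Pcgf-6KO. They were named as the largest changes either way, so their opposite directions follow from the choice. None of them was called in Ring1a-KO, and Slc16a1 averaged 55.1 TPM in Ring1b-KO, 43.5 TPM in Ring1a/b-dKO and 34.9 TPM in Pcgf-4KO. The other changes were not particular to Pcgf-6KO. In Ring1b-KO, Ring1a/b-dKO and Pcgf-4KO, in that order, Slc16a3 averaged 64.9, 76.0 and 35.1 TPM. Mpc1 averaged 35.2, 36.5 and 36.1 TPM in these groups, and Mpc2 18.3, 25.7 and 29.7 TPM. Slc16a3, the monocarboxylate transporter MCT4, averaged 25.0 TPM in Pcgf-6KO, against 170.0 TPM in WT (-2.72 ± 0.08, limma, adjusted p = 2.166e-13), and Slc16a1, the transporter MCT1, 23.7 TPM in Pcgf-6KO, against 57.2 TPM in WT (-1.24 ± 0.05, adjusted p = 3.643e-12). Mpc1 and Mpc2 encode the subunits of the carrier that brings pyruvate into mitochondria. Mpc1 averaged 49.5 TPM in Pcgf-6KO, against 13.6 TPM in WT (1.80 ± 0.08, adjusted p = 1.546e-11), and Mpc2 48.3 TPM in Pcgf-6KO, against 12.1 TPM in WT (1.91 ± 0.10, adjusted p = 7.022e-11). Of the 14 genes of lactate and pyruvate handling, 4 rose and 6 fell in Pcgf-6KO, with a median of -0.14, and 3 rose and 10 fell with quantile normalization. Of the 5 tested genes of gluconeogenesis, 3 rose and 1 fell in Pcgf-6KO, with a median of 0.66, against 0.33 over all genes, which was 0.06 with quantile normalization. Fbp2, the muscle-type fructose bisphosphatase, stood at 84.3 TPM in Pcgf-6KO, against 0.84 TPM in WT (5.53 ± 0.07, adjusted p = 5.651e-18), and Pck2, the mitochondrial phosphoenolpyruvate carboxykinase, at 3.27 TPM in Pcgf-6KO, against 25.8 TPM in WT (-2.65 ± 0.06, adjusted p = 1.624e-14). Of 7 genes of the pentose phosphate pathway, 3 rose and 2 fell in Pcgf-6KO, or 2 and 4 with median ratio scaling, and 2 rose and 2 fell in Ring1b-KO. Pgd averaged 146 TPM in Ring1b-KO, against 241 TPM in WT (-0.72 ± 0.03, adjusted p = 2.245e-11), and G6pdx 38.4 TPM in Ring1b-KO, against 70.4 TPM in WT (-0.86 ± 0.06, adjusted p = 1.385e-08). Of the 4 other glucose transporters tested, at most 1 rose and at most 1 fell in any knockout, while 4 fell in Pcgf-6KO with quantile normalization. Slc2a8 averaged 4.73 TPM in Pcgf-4KO, against 8.35 TPM in WT (-0.71 ± 0.11, adjusted p = 4.145e-05).

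Other hypoxia-inducible genes were called in both directions. Of 28 tested, 16 rose and 8 fell in Pcgf-6KO, 11 rose and 9 fell in Pcgf-4KO, 16 rose and 7 fell in Ring1a/b-dKO, 9 rose and 7 fell in Ring1b-KO, and 7 rose and 5 fell in Ring1a-KO. Over all genes 51.7% were called higher and 22.5% lower in Pcgf-6KO, 47.1% and 17.9% in Pcgf-4KO, and 48.6% and 15.8% in Ring1a/b-dKO. After quantile normalization 12 rose and 13 fell in Pcgf-6KO, 9 rose and 12 fell in Pcgf-4KO, and 10 rose and 10 fell in Ring1a/b-dKO, so no direction of the list is given. Their median log2 fold change was 0.31 in Ring1a/b-dKO, against 0.28 over all genes, 0.07 in Pcgf-4KO, against 0.25, and 0.30 in Pcgf-6KO, against 0.33. After quantile normalization it was 0.02 in Ring1a/b-dKO, -0.22 in Pcgf-4KO and -0.10 in Pcgf-6KO. P4ha2, a collagen prolyl hydroxylase subunit, stood at 46.1 TPM in Pcgf-6KO, against 9.09 TPM in WT (2.23 ± 0.08, limma, adjusted p = 1.932e-12), and Ndufa4l2 at 0.84 TPM in Pcgf-4KO, against 8.42 TPM in WT (-2.38 ± 0.31, adjusted p = 5.737e-06). Vegfa, the angiogenic growth factor, chosen after its values were seen, averaged 28.2 ± 1.81 TPM in Pcgf-6KO and 40.2 ± 3.5 TPM in Ring1a/b-dKO, against 9.63 ± 0.75 TPM in WT. Of the 9 HIF factors and oxygen sensors, 3 rose and 2 fell in Pcgf-6KO and 3 rose and 1 fell in Ring1a/b-dKO, but 1 rose and 5 fell in Pcgf-6KO with median ratio scaling, so no direction of the list is given. Epas1, the gene of HIF-2 alpha, averaged 9.68 TPM in Pcgf-6KO, against 32.3 TPM in WT (-1.65 ± 0.08, adjusted p = 3.784e-11). Egln1, the main HIF prolyl hydroxylase, averaged 15.8 TPM in Pcgf-6KO, against 9.53 TPM in WT (0.67 ± 0.08, adjusted p = 1.744e-06). Hif1a, the gene of HIF-1 alpha, also chosen after its values were seen, averaged 53.2 ± 6.88 TPM in Pcgf-6KO and 39.2 ± 0.649 TPM in Ring1a/b-dKO, against 43.5 ± 1.86 TPM in WT. HIF-1 alpha is controlled mainly at the protein level, which was not measured.

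The genes whose 6 group means lay nearest to those of a member, by the root mean square of the log2 differences from WT, were found for the 9 members whose group means span at least 1 on the log2 scale, all but Bnip3, and those of 8 are given. Nearest to Pgk1 were Eno1 (0.13) and Kdm5b (0.13), a histone demethylase gene. Nearest to Ldha were Fzd5 (0.11) and Fkbp4 (0.14), and to Pfkp Pycr1 (0.27) and Cobl (0.31). Nearest to Pdk1 were Gm10704 (0.26) and Adam23 (0.31), to Egln3 Stc2 (0.16) and Gm47599 (0.18), and to Ankrd37 Gm47882 (0.19) and AW551984 (0.20). The transporters lay nearest to Pspc1 (0.16) and a second, low-level annotation entry named Aldoa (0.15) for Slc2a1, and to Tph1 (0.13) and Tfr2 (0.17) for Slc2a3. Eno1 encodes an enolase, and Stc2 a secreted hormone known to be induced by hypoxia. These distances rank genes over 6 group means and carry no test.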

How the data were processed

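Total RNA of 18 mouse embryonic stem cell samples, detached with trypsin and lysed in Trizol, went into TruSeq RNA libraries, per the labels' protocols. The authors deposited TPM for 56551 genes, written to 2 decimals, with 6 columns of group means that were not used. Tools named in the submitters' processing notes are RSEM, edgeR and TopHat2 (2.1.1), with the build GRCm38.p5. What each program did, the annotation release and the strand setting are not given in the sources. Read counts cannot be had from TPM, so sequencing depth is unknown and counting error is not given. TPM are shares, so a large rise of some genes lowers the share of the rest. An exact 0 can be a failed estimate: 86 genes with a median of at least 5 TPM were listed at 0 in some library.

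Symbols and spans came from a GENCODE annotation of GRCm38, which named 55227 genes, and promoter windows from RefSeq (GRCm38.p6). Testing was limited to the 17842 genes that reached 1 TPM in 3 or more libraries, 927 of them without a symbol. With limma 3.58.1 (R 4.3.3), log2(TPM + 1) of every library was modelled by its group, with empirical Bayes and a trend, 12 residual degrees of freedom and two-sided tests, and the fit was tested on simulated data. Fold changes on this scale understate those of genes at a few TPM. P-values were adjusted by Benjamini-Hochberg over all genes tested in a comparison, separately for 8 comparisons. A gene was called, and said to rise or fall, at an adjusted p under 0.05. Values are mean ± SD of libraries and log2 fold change ± SE. Whether replicate libraries stem from separate cultures is not stated, so p-values measure the spread between libraries, which may be technical.

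The 10 genes, the other gene lists, the comparisons and the markers were chosen with earlier results of these data known. From each other list, the text names at most 2 genes with the largest rise and 2 with the largest fall against WT, taken from called genes whose higher group averaged 5 TPM at least. For each of the 10 genes that spans 1 or more on the log2 scale it names the 2 genes with the nearest group means. Those of Hk2 are not reported here. No p-value is given for a list. The 8 other settings tried were a pseudocount of 0.1 TPM, no filter, a filter at 5 TPM, median ratio scaling, quantile normalization, nuclear protein-coding genes alone, only the groups compared and a replicate block, and each of the 18 libraries was also left out in turn. Replicate numbers shared between groups were not taken as pairs, since neither the labels nor the correlations between same-numbered libraries met the bar for pairing. Sequence shared between genes was counted as 50-base stretches of GENCODE transcripts found in both.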

Additional observations from a re-analysis of the deposited data

Results flagged for a closer look

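For 9 of the 10 genes the interaction term of the limma model was called (adjusted over all 17842 genes tested, of which 48.7% were called). By the labels, the effect of losing Ring1b thus differed with and without Ring1a. Rnf2 was lower in Ring1a/b-dKO than in Ring1b-KO, so other differences between the groups cannot be told apart from this. The interaction is the log2 change in Ring1a/b-dKO minus the sum of the changes in the single knockouts, all against the same 3 WT libraries. It was negative for Pfkp (-1.86), Ankrd37 (-1.61), Ldha (-1.02), Pdk1 (-0.95), Hk2 (-0.68) and Pgk1 (-0.63). It was positive for Slc2a1 (0.78), Egln3 (0.43) and Slc2a3 (0.20). That of Slc2a3 missed the threshold after median ratio scaling (0.03), after quantile normalization, with no filter and with nuclear protein-coding genes. It also missed it when most of the single libraries were left out. That of Egln3 missed it after quantile normalization (0.14, adjusted p = 0.257). Pfkp is the gene with the widest contrast: its 3 libraries lay between 26.6 and 27.6 TPM in Ring1a/b-dKO, between 92.2 and 100.3 TPM in Ring1b-KO and between 49.3 and 55.0 TPM in Ring1a-KO, against 47.8 to 50.8 TPM in WT. Groups of 3 libraries are too small for a test of a single library that stands apart.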

How the results depend on the processing

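Over 8 other settings, the 18 libraries left out in turn and the 1 setting chosen after seeing the data, 1145 of 1200 fold changes of the 10 genes kept their direction and their side of the threshold, 37 lost the threshold, 9 gained it and 9 reversed, none of the reversed ones past the threshold in either fit. Reversed were Ldha in Ring1b-KO (-0.0618 with median ratio scaling), Egln3 in Pcgf-6KO against Pcgf-4KO (-0.0162 with quantile normalization) and Ankrd37 in Ring1b-KO (0.0059 with nuclear protein-coding genes). Leaving out 1 library also reversed 4 small differences: over the libraries left out, Pgk1 in Ring1a-KO ranged from -0.0066 to 0.0584, Slc2a1 in Pcgf-4KO from -0.0478 to 0.0006, Ankrd37 in Ring1b-KO from -0.0719 to 0.0337 and Ankrd37 in Pcgf-6KO against Pcgf-4KO from -0.245 to 0.028. The cause was not tested. The number of the 10 genes called was 10 in Ring1a/b-dKO and in Pcgf-6KO in every one of these fits, 7 to 8 in Ring1b-KO, 8 to 10 in Pcgf-4KO and 5 to 7 in Ring1a-KO. It was 4 in Ring1a-KO without replicates 2 and 3 of that group, where fewer libraries were fitted, against 7 with them. Leaving out 1 library in turn gave 5 to 6 in Ring1a-KO, 9 to 10 in Ring1a/b-dKO against Ring1b-KO and 8 to 9 for the interaction, and no change elsewhere. With a replicate block 6 were called in Ring1a-KO (Pdk1 at adjusted p = 0.06065) and the other counts did not change. As deposited, 64.4% of all genes were called in Ring1a/b-dKO, 74.2% in Pcgf-6KO, 51.8% in Ring1b-KO, 65% in Pcgf-4KO and 23.1% in Ring1a-KO. In Ring1a/b-dKO that was 11489 genes, 11329 after median ratio scaling and 11059 after quantile normalization. In Pcgf-6KO it was 13236, 13060 and 12902 genes. Deviations of libraries with the same number correlated at a median r of 0.02 over 45 pairs, against -0.014 over 90 pairs with other numbers, and 12 of 18 libraries correlated best with their own number, a hint from the data and not from the design. Depth is unknown, so genes at a few TPM, such as Ankrd37 and Egln3, rest on an unknown number of reads.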
